A study of Mus musculus with 2 samples.

Results

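Hypomethylated exonic DMPs outside promoters were single CpG cytosines that were methylated in more than 80 % of reads in wt MEFs and in less than 20 % of reads in βerko MEFs. They carried an exon label and no promoter label in the deposited annotation and were covered by at least 5 reads in both cell types. Of 826937 cytosine positions covered in both cell types, 1656 met these conditions, and they belonged to 1568 CpGs, since 88 CpGs met them on both strands. DMPs are differentially methylated positions. The samples were 1 reduced representation bisulfite sequencing (RRBS) library of wildtype (wt) and 1 of ESR2 -/- (βerko) mouse embryonic fibroblasts, both of strain C57BL/6 and grown in the same high glucose medium with serum. ESR2 encodes oestrogen receptor β, and the comparison asks where DNA methylation differs in cells that lack it. Each library was made from 3 pooled batches of genomic DNA, so that no spread between batches, cultures or embryos is available and no test between the genotypes was possible. Without expression values, the labelled cell type could not be compared with its markers. The wt and βerko cells also differ in the embryos from which they were derived, and this cannot be told apart from the genotype. The positions were chosen by the methylation values of these same 2 libraries, so that their methylation is given as a description and not as a result of a test.

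In mammals, DNA methylation is placed mainly on the cytosine of CpG dinucleotides and is copied by maintenance methyltransferases when DNA is replicated. Promoters in CpG islands are usually free of methylation, whereas exons within gene bodies are usually methylated, also in genes that are transcribed. CpG islands over the exons of developmental regulator genes are often unmethylated while the gene is repressed by Polycomb proteins. After bisulfite treatment, unmethylated cytosines are read as thymine, and the treatment does not separate methylation from hydroxymethylation.

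Many hypomethylated exonic DMPs lay close together. The following 4 stretches are printed because they show how closely such positions were spaced within coding sequence, and only runs in coding sequence were considered for printing. All are given 5′ to 3′ on the plus strand of the mouse genome build NCBIM37 (mm9), and capitals mark the CpGs that were hypomethylated exonic DMPs on at least 1 strand.
Obsl1, exon 17 of 20, chr1:75484241-75484345: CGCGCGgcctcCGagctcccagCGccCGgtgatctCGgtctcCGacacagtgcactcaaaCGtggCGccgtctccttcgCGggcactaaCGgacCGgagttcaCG
Irx2, exon 3 of 5, chr13:72768942-72769025: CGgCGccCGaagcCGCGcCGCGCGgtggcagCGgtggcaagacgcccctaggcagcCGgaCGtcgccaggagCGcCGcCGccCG
Dapk3, exon 8 of 8, chr10:80655180-80655229: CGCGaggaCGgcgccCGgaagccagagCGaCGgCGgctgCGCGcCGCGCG
Fzd9, exon 1 of 1, chr5:135726320-135726542: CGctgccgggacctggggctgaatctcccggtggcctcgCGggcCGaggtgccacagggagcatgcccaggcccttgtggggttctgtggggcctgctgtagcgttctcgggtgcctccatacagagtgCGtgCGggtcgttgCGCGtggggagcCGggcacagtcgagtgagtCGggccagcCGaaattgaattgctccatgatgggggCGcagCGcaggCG
Obsl1 and Fzd9 are transcribed from the other strand. In the Obsl1 stretch, 14 of 16 covered CpGs were hypomethylated, and in Fzd9 13 of 18 were. In Irx2, 15 of 16 covered CpGs within 84 bp were hypomethylated, and in the Dapk3 stretch 12 of 13 were. The G+C content of the 4 stretches ranged from 68.6 % in Obsl1 to 84.0 % in Dapk3.

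In wt MEFs, the median methylation of the 1656 positions was 92.9 %, and in βerko MEFs it was 9.76 %. Many values were at the ends of the scale, because 534 positions were methylated in all reads in wt, 228 were methylated in no read in βerko, and 92 showed both. Above 90 % in wt were 1025 positions, and below 10 % in βerko were 839. As background, 0.728 % of all covered positions were above 80 % in wt and below 20 % in βerko MEFs, and 0.953 % of the covered positions that gene models place in exons outside promoters. Of the exonic positions that were above 80 % in wt, 2.5 % were below 20 % in βerko, compared with 2.24 % over all covered positions. The share in exons was thus close to that in the covered genome as a whole. These backgrounds include positions with fewer than 5 reads, whose coverage was not used here.

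Coverage was lower in wt, with a median of 19 reads (5 to 128), than in βerko MEFs, with a median of 47 reads (5 to 157). At 1413 positions, more reads were counted in βerko, and the part of this difference in the results was not tested. A position with 5 of 5 methylated reads has an exact 95 % binomial confidence interval that starts at 47.8 %, and for 20 of 20 reads it starts at 83.2 %. The intervals of the 2 libraries did not overlap at 1607 of 1656 positions (97.0 %), which follows largely from the thresholds. No such share is given over all covered positions, as their coverage was not used, so that it describes the selection only. Fewer than 10 reads were available at 327 positions in wt and at 96 in βerko. At least 20 reads in both libraries were available at 767 positions. Reads were amplified by PCR without molecular identifiers and neighbouring positions share reads, so that all intervals cover counting error only.

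The most deeply covered positions were often single ones. At 5906325 on chromosome 1, in the 3′ UTR of the neuropeptide receptor gene Npbwr1, 88.3 % of the 128 wt reads (exact interval 81.4 to 93.3 %) and 18.9 % of the 127 βerko reads (12.5 to 26.8 %) were methylated. The last exon of Acvrl1, which encodes a receptor for ligands of the TGF-β family, held a position at which 84.9 % of 119 wt reads but 12.4 % of 153 βerko reads were methylated. In the 3′ UTR of Cpsf3, the endonuclease of the polyadenylation complex, the values were 93.5 % at 107 wt reads and 4.72 % at 106 βerko reads. The intervals of the 2 libraries did not overlap at any of these 3 positions, as at 97.0 % of all selected positions, which the thresholds largely fix. A deeply covered position could nevertheless differ from its surroundings, as at Nmi. Under the label of this interferon-inducible gene, a position in no model exon, on chromosome 2 at 51828298, had 85.8 % methylation at 106 wt reads. It had 0 % at 104 βerko reads, for which the exact interval reaches 3.48 %. The 17 other covered positions within 100 bp of it averaged 4.14 % in wt and 1.59 % in βerko, so that this position stood apart from its neighbours in wt. By contrast, the Npbwr1 position belonged to a run of 3 hypomethylated exonic positions within 27 bp that averaged 85.7 % in wt and 15.4 % in βerko. A coding position of Ccdc64b had 90.3 % at 103 wt reads and 10.1 % at 138 βerko reads, and a position under the label of Ptgis, the prostacyclin synthase gene, but in no model exon had 92.6 % at 94 and 18.6 % at 102 reads. A coding position of Rab11fip3, the gene of an effector of Rab11, had 87.8 % at 90 and 17.9 % at 95 reads. The other 3 of the 10 most deeply covered positions lay in Fam171a2, Isl2 and under the label AK078749, with 82.7 to 89.1 % in wt and 9.80 to 17.9 % in βerko.

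The thresholds cut through a continuous range of values. Just inside, a position of the extracellular matrix gene Cilp2 had 80.3 % in wt, and a position of the homeobox gene Nkx3-2 had 19.8 % in βerko MEFs. Just outside, 119 covered exonic positions were at exactly 80 % in wt and below 20 % in βerko, for example in Igfbp2 and Rassf5, and 91 were above 80 % in wt and at exactly 20 % in βerko, for example in Sobp and Eml6.

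The exon label of the deposited annotation includes cDNA clones and was compared with the GENCODE gene models of the same build. In the models, 1249 positions (75.4 %, exact 95 % interval 73.3 to 77.5 %) lay in an exon. Of all 1656, 951 lay in coding sequence (57.4 %), 73 in 5′ UTRs, 123 in 3′ UTRs and 102 in exons of noncoding transcripts. The remaining 407 lay in no model exon, 202 of them inside a model gene. The deposited annotation also gave an intron label to 516 positions, from other transcripts. In addition, 127 positions had an entry for a transcription start region, and 89 (5.37 %) lay within 500 bp upstream to 100 bp downstream of a start in the gene models. The label exonic and outside promoters therefore does not hold in both annotations for every position. Of the positions selected here and the 1603 selected with gene models in place of the deposited annotation, 1174 were shared, which is 70.9 % and 73.2 % of the respective set.

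Within genes, the hypomethylated positions were spread over all types of exons. Of the 1249 positions in model exons, 12.1 % were in single-exon transcripts, 22.0 % in first exons, 31.6 % in internal exons and 34.3 % in last exons. Covered exonic positions above 80 % in wt, from which they were drawn, were placed differently, with 4.63, 6.85, 55.2 and 33.4 %. The median distance to the transcript start was 2114 bp for the hypomethylated positions, 13358.5 bp for those above 80 % in wt and 1187 bp for all covered exonic positions. Exonic positions that were hypomethylated in βerko thus lay nearer to the start of the transcript than the methylated exonic positions as a whole. Within coding sequence, the cytosine of the coding strand stood at the first codon position in 27.5 % of 908 CpGs, at the second in 31.2 % and at the last in 41.3 %. For coding CpGs above 80 % in wt these shares were 42.2, 24.4 and 33.4 %, and for all covered coding CpGs 34.0, 28.9 and 37.1 %. Arginine codons, most of which begin with CG, held 31.3 % of the hypomethylated, 43.2 % of the wt-methylated and 36 % of all covered coding CpGs. Of the 1249 positions, 75 lay in promoter windows of the gene models, which both backgrounds leave out. These shares were not tested, as positions of 1 exon are not independent.

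The sequence around the hypomethylated exonic positions also differed from that of other methylated exonic positions. A window of 250 bp on each side was called CpG-rich when its G+C content was above 50 % and its ratio of observed to expected CpGs above 0.6. Such windows surrounded 71.9 % of the 1656 positions (69.6 to 74.0 %) and 74.6 % of those in model exons. Of the covered exonic positions, 58.8 % lay in a CpG-rich window, but of those above 80 % in wt only 20.0 % did. Among the hypomethylated DMPs elsewhere, the share was 71.5 % in promoters, 29.4 % in introns and 24.4 % between genes. The exonic share was hence close to that of promoters, and the difference was not tested. When 1 position was taken from each run within 500 bp, 54.5 % remained in CpG-rich windows, so that part of the share comes from the large groups. The CpG belonged to an MspI site, where RRBS fragments are cut, at 35.4 % of the positions, compared with 34.1 % of all covered exonic positions and 45.0 % of those above 80 % in wt.

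**Figure D1:**
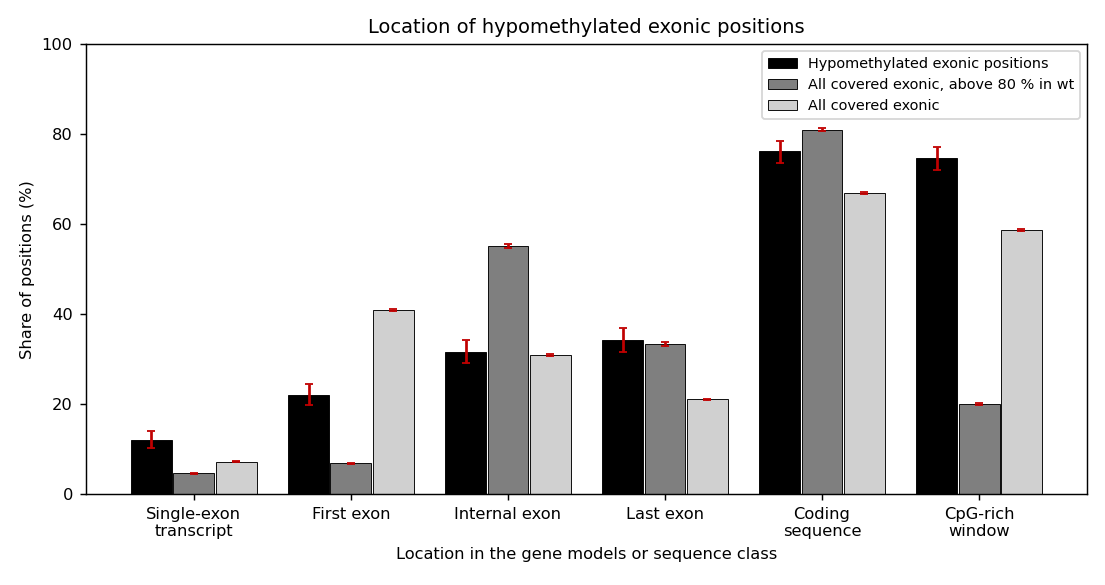
Share of positions (%) by location in the gene models and by sequence class for the 1249 hypomethylated exonic positions in model exons (black), all covered exonic positions above 80 % in wt MEFs (dark grey) and all covered exonic positions (light grey), with exact 95 % binomial intervals in red. First and single exons and CpG-rich windows held larger shares of the hypomethylated positions (22.0, 12.1 and 74.6 %) than of the positions methylated in wt (6.85, 4.63 and 20.0 %).

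Hypomethylated exonic DMPs often occurred in groups. Runs were counted as at least 3 such positions with gaps of at most 100 bp, and 830 of 1656 positions (50.1 %, 47.7 to 52.6 %) formed 136 runs. The same share was 45.9 % for hypomethylated DMPs in promoters (43.4 to 48.3 %), 24.8 % in introns (22.5 to 27.2 %) and 22.2 % between genes (19.8 to 24.7 %). These intervals treat positions as independent, although positions of 1 run share reads, so that the shares were not tested against each other. Other covered CpGs lay within 100 bp of 92.0 % of the exonic DMPs and 90.8 % of those in promoters. In introns this share was 80.4 % and between genes 76.8 %, and its part in the run shares was not tested. There were 66 runs of 5 or more positions and 24 runs of 10 or more, and the latter held 348 positions. On the other side, 550 positions were not within 100 bp of another. Since a read covers several CpGs, 547 positions lay next to another with the same coverage in both libraries on the same strand, and such positions are not separate measurements. The distribution over chromosomes was uneven, with 34 positions on chromosome 15 and 163 on chromosome 11. Of the covered exonic positions above 80 % in wt, the share below 20 % in βerko ranged from 1.36 % on chromosome 1 to 4.86 % on chromosome 13 and 5.23 % on chromosome 18, with Pitx1 and Gata6 among the genes of the latter 2 chromosomes.

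The positions carried 701 gene symbols, of which 569 were found in the gene models, 532 of them as protein-coding. A single position was found in 435 genes, 2 to 4 positions in 185, and 5 or more in 81 genes. The 20 leading genes held 394 positions.

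**Figure D2:**
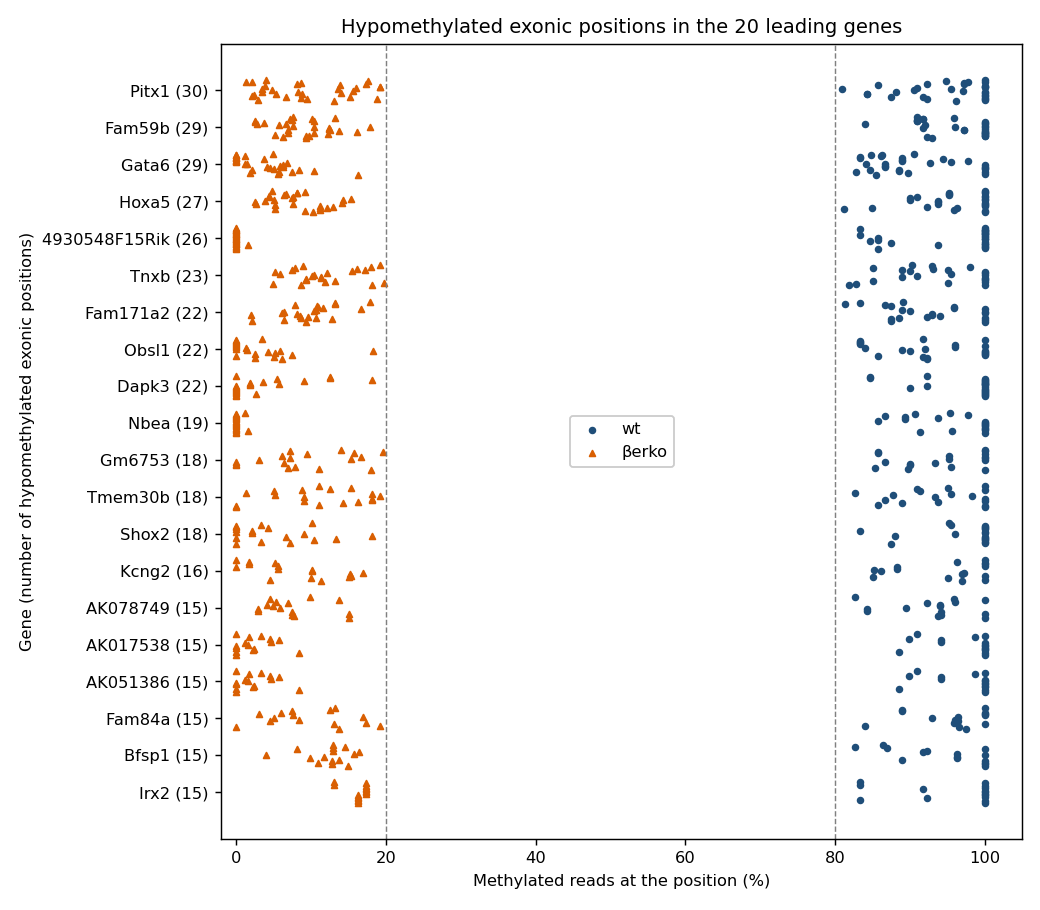
Methylated reads (%) in wt (blue circles) and βerko MEFs (orange triangles) at every hypomethylated exonic position of the 20 genes with most positions, with the number of positions in brackets and the thresholds at 20 and 80 % as dashed lines. AK017538 and AK051386 name the same 15 positions. The values of 4930548F15Rik and Nbea in βerko lie at or near 0 %, whereas those of Irx2 lie between 13.0 and 17.4 %.

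Most positions were found in Pitx1, a homeobox gene that specifies hindlimb identity. All 30 lay in the last of its 3 exons, 17 in coding sequence and 13 in the 3′ UTR. Methylation ranged from 80.9 to 100 % in wt, at 8 to 67 reads, and from 1.32 to 19.2 % in βerko, at 26 to 110 reads. At 55927466 on chromosome 13, for example, 97.0 % of the 67 wt reads and 15.6 % of the 109 βerko reads were methylated. The 24 other covered positions of this exon were lower in βerko as well, with averages of 93.5 % (wt) and 44.6 % (βerko) and a lower value at 23 of 24.

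Fam59b, the gene of an adaptor protein that binds Grb2, held the longest run. Its 29 positions on chromosome 5 all lay in exon 4 of 6. Values ranged from 84.0 to 100 % in wt, at a low coverage of 5 to 36 reads, and from 2.5 to 17.8 % in βerko, at 31 to 106 reads. The 21 other covered positions of the run averaged 85.5 % in wt and 27.8 % in βerko, so that the whole stretch was lower, although in part less than the hypomethylated DMPs themselves. In the rest of the exonic sequence of Fam59b, more than 500 bp away, 14 positions had means of 36.9 % and 34.0 %.

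Hoxa5, a Hox gene with roles in lung and axial skeleton development, held 27 positions in a single run in exon 1 of 2 on chromosome 6. In wt they had 81.1 to 100 % methylation at 10 to 53 reads, and in βerko 2.53 to 15.4 % at 13 to 116 reads. In Gata6, a zinc finger transcription factor gene of endoderm and heart, 29 coding positions of exon 2 averaged 90.5 % in wt (5 to 72 reads) and 3.76 % in βerko (10 to 89 reads).

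Several leading genes do not encode transcription factors. Obsl1, the gene of a cytoskeletal adaptor related to obscurin, held 22 coding positions in exons 16 to 18 of 20, with 16 of them in the printed stretch. Their mean was 92.5 % in wt and 2.88 % in βerko, at 6 to 73 and 29 to 87 reads. Dapk3, the gene of a death-associated protein kinase, held 22 coding positions in its last exon, with means of 97.4 % and 3.42 %. Wt coverage in Dapk3 was only 5 to 13 reads, so that each single wt value is imprecise. The 6 other covered positions of this exon were at 82.1 % in wt and 9.83 % in βerko, while 10 exonic positions of Dapk3 more than 500 bp away were at 95.7 % and 95 %. A like contrast was found in Tnxb, the gene of the matrix protein tenascin-X. Its 23 coding positions had means of 93.6 % in wt and 11.8 % in βerko, the 76 other covered positions of exon 2 had 87.3 % and 49.9 %, and the 18 exonic positions further away had 89.9 % and 91.7 %. In Dapk3 and Tnxb, the covered exonic positions away from the group thus had similar means in both cell types.

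Further groups lay in Fam171a2 (22 positions, 92.4 % in wt and 9.72 % in βerko on average) and in the only exon of Tmem30b, the gene of a subunit of phospholipid flippases (18 positions, 93.9 and 10.7 %). Bfsp1, the gene of the lens filament protein filensin, had 15 positions in exon 1 at 94.5 and 12.3 %, and Fam84a had 15 positions in exon 2 at 95.6 and 9.87 %. Shox2, a homeobox gene of limb and heart development, had 18 positions in its last exon, 14 of them in the 3′ UTR, at 97.0 and 5.00 %. Irx2, of the Iroquois homeobox family, had 15 positions within 83 bp at 95.6 and 16.3 %. Coverage at Irx2 was 12 or 13 wt reads at all 15 positions, and 23 or 37 βerko reads, so that many of these positions share reads. Kcng2, the gene of a modulatory potassium channel subunit, had 16 positions at 94.7 and 8.02 %, of which 7 lay in a model exon.

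For several groups, the exon label came from a transcript that the gene models do not hold. The 26 positions of 4930548F15Rik lay in no model exon and averaged 95.8 % in wt (5 to 16 reads) and 0.0612 % in βerko (9 to 67 reads). At Nbea, which encodes the neuronal trafficking protein neurobeachin, 19 positions lay outside model exons, with 95.5 % in wt and 0.143 % in βerko at 13 to 43 and 39 to 85 reads. The 18 positions labelled Gm6753 and the 15 labelled AK017538 and AK051386 were also outside model exons. The 15 positions labelled AK078749 lay in the 5′ UTR of Gna14, the gene of a G protein α subunit, and had 93.0 % in wt and 7.58 % in βerko. In total, the symbol of the deposited annotation was that of the gene model at 1178 of the 1249 positions in model exons.

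**Figure D3:**
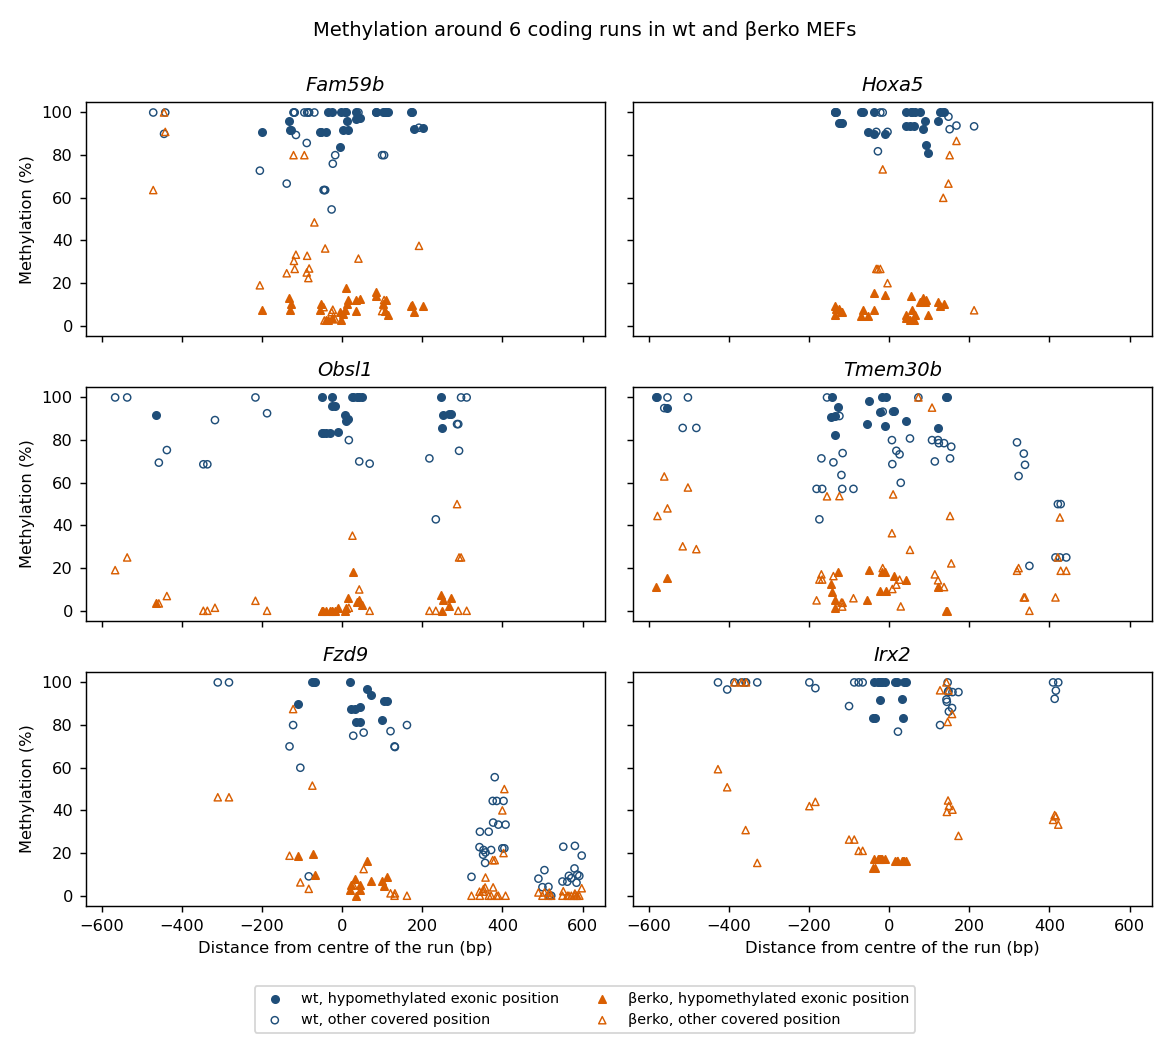
Methylation (%) in wt (blue circles) and βerko MEFs (orange triangles) against the distance (bp) from the centre of the run in 6 coding runs, with filled symbols for hypomethylated exonic positions and open symbols for other covered positions. In Irx2, Hoxa5, Tmem30b and Fzd9, some other positions in βerko rise to values above 80 % within 200 bp of the centre. Many wt values fall below 60 % on the right in Fzd9 and Tmem30b.

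Other covered CpGs near the hypomethylated positions were examined next, leaving out the CpGs of the positions themselves. They were found within 100 bp of 1524 positions, and the median of their averages was 76.4 % for wt and 28.6 % for βerko MEFs. The median difference (βerko minus wt) was -43.4 percentage points, and it was below -20 points at 1218 positions (79.9 %). Of all covered positions, 10.2 % were lower by more than 20 points, and of the covered exonic positions outside promoters 12.4 %. These are single positions at any wt level and not averages of neighbours, so that this is not a like comparison. Without neighbours that were themselves hypomethylated DMPs under other labels, the median was -42.2 points at 1501 positions. With 1 value per run within 500 bp, the median was -28.7 points, as the large groups count less. A neighbourhood lower by more than 20 points was found at 78.5 % of the DMPs in promoters, 65.7 % of those in introns and 65.8 % of those between genes. Neighbours share reads with the DMPs, so that these are not independent of the selection.

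With distance, the difference became smaller. Positions at 1 to 25 bp averaged 66.6 % in wt and 32.9 % in βerko (difference -33.8 points, SD over 2694 positions 29.0). At 101 to 200 bp the means were 53.2 and 29.9 % (difference -23.4 points, SD over 2726 positions 28.3). At 501 to 1000 bp they were 30.8 and 21.3 % (-9.53 points, SD over 5213 positions 22.5), and at 2001 to 5000 bp 42.7 and 38.6 % (-4.13 points, SD over 6317 positions 22.6). The spread between positions was as large as the mean or larger at distances above 25 bp. In wt MEFs methylation was lower further from the DMPs up to 2 kb, while in βerko it changed less, so that most of the narrowing was in the wt values. The difference at 101 to 200 bp was -21.1 points around promoter DMPs, -19.2 points around intronic and -16.8 points around intergenic ones.

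**Figure D4:**
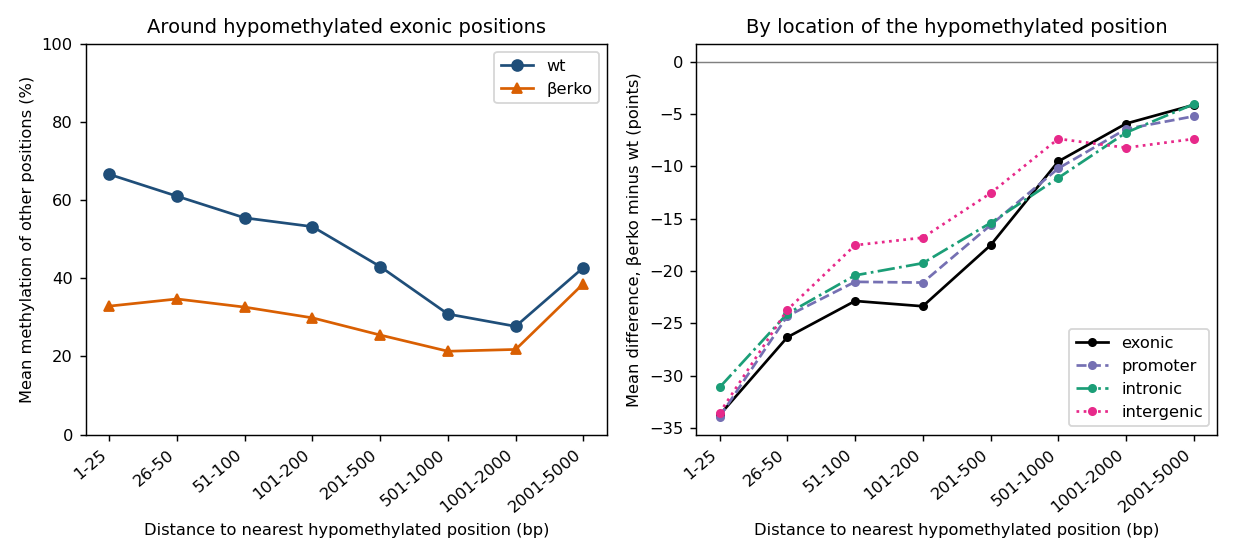
Mean methylation (%) of other covered positions in wt (blue circles) and βerko MEFs (orange triangles) by distance (bp) to the nearest hypomethylated exonic position (left), and mean difference, βerko minus wt, in percentage points around hypomethylated DMPs of 4 locations (right). Around exonic positions the difference goes from -33.8 points at 1 to 25 bp to -4.13 points at 2001 to 5000 bp.

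The other strand of the same CpG, which is read from other fragments, was covered at 353 positions. At 176 of them, both strands were hypomethylated exonic DMPs. At the remaining 177, the median on the other strand was 83.3 % for wt and 23.3 % for βerko, with a median difference of -57.1 points. It was lower in βerko at 170 of 177 and lower by more than 20 points at 161. Of all covered positions, at any wt level, 10.2 % were lower by this amount, which is not a like comparison. The highest difference on the other strand was 29.5 points in the opposite direction.

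To see how far the change extended, the other covered positions of each model exon were averaged. Of 553 exons with hypomethylated positions, 417 had at least 5 other covered positions. Their mean was lower in βerko in 390 exons, for which no share over all exons was computed, and lower by more than 20 points in 198. Of all 10029 exons with at least 5 covered positions outside promoters, at any wt level, 7.31 % were lower by this amount. The median difference was -19.1 points, compared with -0.375 points in all exons. The averages over all exons leave out promoter positions and keep the hypomethylated exonic ones, unlike those of the 417 exons, so that they are not a like comparison. Without positions that were hypomethylated DMPs under other labels, 190 of 413 exons remained lower by more than 20 points. On the other hand, 59 exons differed by less than 5 points and 27 were higher in βerko.

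The lowest exon was exon 1 of Hoxd9, a Hox gene of limb and trunk patterning. Its 61 covered positions that were not among the 7 hypomethylated exonic ones averaged 94.1 % in wt and 1.4 % in βerko and were lower at 61 of 61. Of these, 53 met the same methylation thresholds without being selected, for example under a promoter label. Serinc2, a gene of a membrane protein family, followed with 7 other positions of exon 1 at 94.4 % and 5.33 %. The only exon of Mab21l1, a gene of eye and limb development, had 8 positions at 81.7 % and 0.715 %. Exon 1 of Lpcat2, which encodes a lysophospholipid acyltransferase, had 15 positions at 92.8 % and 12.3 %. Exon 1 of the arylsulfatase gene Arsj had 10 positions at 86.3 % and 8.79 %. Most of these other positions also met both methylation thresholds, namely 7 of 7 in Serinc2, 6 of 8 in Mab21l1, 14 of 15 in Lpcat2 and 5 of 10 in Arsj, so that these low means in βerko follow in part from DMPs that were not selected. Without such positions, the difference was -76.2 points in Hoxd9, -61.5 points in Arsj and -72.2 points in exon 8 of Dapk3, which held none.

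At the other end, exon 3 of Tmem82 had 5 other positions at 65.7 % in wt and 77.1 % in βerko. The only exon of Rprml had 67 other positions at 7.03 % in wt and 18.1 % in βerko, and its single hypomethylated position lay in a mostly unmethylated exon. Exon 3 of Iglon5, a cell adhesion gene of the immunoglobulin superfamily, had 7 positions at 87.2 and 96.4 %. The last exon of 4930407I10Rik had 16 positions at 55.2 and 64.2 %, and exon 1 of Lmod1, the gene of the muscle protein leiomodin, had 13 positions at 79.2 and 87.4 %. The differences in these 5 exons were all smaller than the SD of the differences between their positions.

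Hypermethylated DMPs, with less than 20 % methylation in wt and more than 80 % in βerko, made up 0.155 % of the covered exonic positions outside promoters. Of 1960 with at least 5 reads, 15 (0.765 %) lay within 500 bp of a hypomethylated exonic position, beside 1.70 % of all other covered positions. One of them lay in Eomes, a T-box gene of the endoderm, at 118388447 on chromosome 9, at 14.3 % (14 reads) in wt and 93.3 % (15 reads) in βerko. Another lay in Shank1, the gene of a synaptic scaffold, at 3.03 % (33 reads) in wt and 81.8 % (11 reads) in βerko. A further one lay at Gas2l1 and Rasl10a on chromosome 11, at 16.7 % (36 reads) and 90.9 % (22 reads). Losses and gains thus lay side by side at these genes.

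Promoters of the same genes were compared with the gene models, from 500 bp upstream to 100 bp downstream of each start, leaving out positions within 500 bp of a hypomethylated exonic position. At least 5 such positions were covered for 286 genes. In wt MEFs, the mean was below 20 % in 196 of these promoters (68.5 %) and in 82.7 % of all 10509 promoters. Lower in βerko by more than 20 points were 29 promoters (10.1 %), beside 4.16 % of all. Higher by this amount were 5 (1.75 %), beside 0.438 % of all. Promoters below 20 % in wt could not be lower by more than 20 points. The median promoter mean in wt was 8.29 % for these genes and 0.852 % for all, and the part of this level in the shares was not tested. The median difference was -0.802 points, so that most of these promoters differed little, many of them being low in wt already.

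Of these promoters, that of Dmrta2 had the largest decrease. The promoter of Dmrta2, a gene of forebrain patterning with 4 hypomethylated exonic positions, had 81.3 % in wt and 15.4 % in βerko over 16 positions. It was followed by Arhgef16, the gene of a guanine nucleotide exchange factor, with 75.6 and 20.6 % over 27 positions, and by Oxct2a, the gene of a ketone body enzyme of testis, with 62.0 and 7.31 % over 5 positions. The promoter of Hoxa5 had 93.9 and 40.9 % over 9 positions, and that of Tbx3 50.5 and 0.459 % over 18 positions. By the gene models, that of Pitx1 had 81.3 and 37.4 % over 44 positions. However, 7 DMPs under a Pitx1 promoter label were hypermethylated, with means of 3.49 % in wt and 89.6 % in βerko. Little changed was the promoter of Fam59b, with 1.08 % in wt and 0.268 % in βerko over 21 positions. The promoter of Irx2 had 4.85 and 4.22 % over 37 positions. The promoter of Fam84a was higher in βerko, with 6.27 % in wt and 37.8 % in βerko over 6 positions. That of Gp1bb, the gene of a platelet glycoprotein with 7 hypomethylated exonic positions, was methylated in both, with 94.3 and 93.7 % over 11 positions. Hypomethylated exonic DMPs were thus found with promoters that were unmethylated in both cell types, that were lower in βerko, or that were methylated in both.

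**Figure D5:**
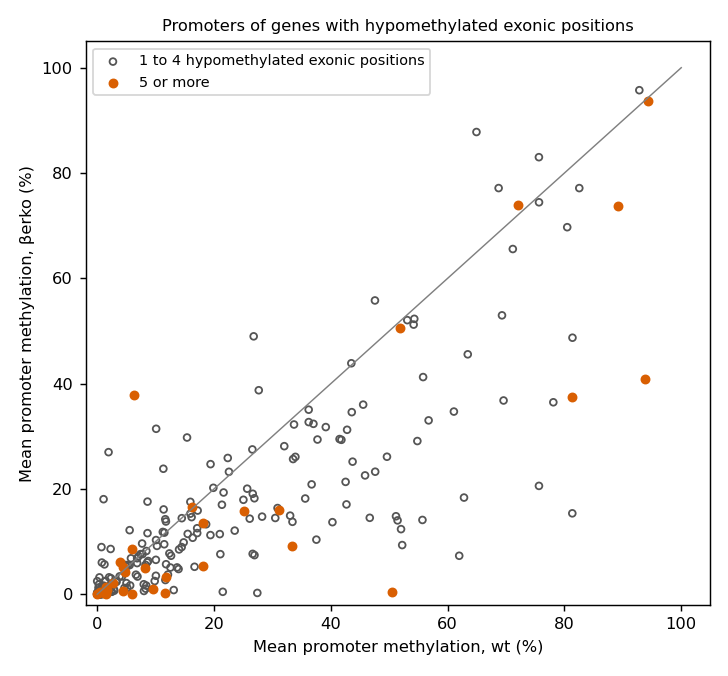
Mean promoter methylation (%) in βerko against wt MEFs for the 286 genes with hypomethylated exonic positions and at least 5 covered promoter positions more than 500 bp from such a position, with 1 point per gene, filled for genes with 5 or more hypomethylated positions. Most points lie near the lower left corner, and 29 lie more than 20 points below the line of equal values, Tbx3 (50.5 and 0.459 %) among them.

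Exonic positions more than 500 bp from any hypomethylated exonic position were covered for 298 of the genes with at least 5 such positions. Their mean difference had a median of -1.65 points, compared with -0.454 points over 8506 genes, and 24 (8.05 %) were lower by more than 20 points, beside 5.02 % of all genes. Hoxd9 was the lowest, with 95.4 % in wt and 4.71 % in βerko over 35 positions. Nkx6-2, a homeobox gene of neural development, followed with 94.9 and 41.2 % over 13 positions, and Klf4, a zinc finger gene of epithelia and pluripotent cells, had 45.9 and 9.29 % over 35 positions.

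Gene families of development and signalling were counted by lists of symbols. Together, the lists held 335 of the 1656 positions (20.2 %), beside 9.81 % of the covered exonic positions by gene models and 6.91 % of those above 80 % in wt. For each list, the share of its covered exonic positions above 80 % in wt that were below 20 % in βerko is given by the gene models, for which the share over all genes was 2.5 %. These shares use the same contrast as the selection and were not tested, and positions within a gene are not independent.

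Hox genes, which pattern the body axis, held 46 positions in 6 of 38 covered genes, and their share was 43.5 % of 216 positions. Hoxa5 and Hoxd9 held 27 and 8 of them, and Hoxa3 and Hoxb3 held 6 and 3. By the gene models, however, 60 of the 94 Hox positions behind this share lay in Hoxd9, many of them not selected here, and without Hoxd9 the share was 22.2 % of 153. Of the 94, 34 were left, and Hoxa5, with its 27 selected positions in a single run, was not taken out. The 8 positions of Hoxd9 averaged 94.8 % in wt (16 to 36 reads) and 11.3 % in βerko (70 to 83 reads). The 6 positions of Hoxa3 were also labelled 2700086A05Rik, and none lay in coding sequence. Other homeobox genes held 126 positions in 25 of 103 genes, with a share of 18.7 % of 881, led by Pitx1, Shox2, Irx2 and Isl2. Without Pitx1 the share was 16.5 % of 818. In Isl2, a LIM homeobox gene of motor neurons, 13 positions were spread over several exons, with 93.0 % in wt and 13.9 % in βerko. The other 19 covered positions of its last exon were at 88.0 and 41.6 %.

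T-box genes had 19 positions in 3 of 12 genes and a share of 13.8 % of 116, or 9.26 % of 108 without Tbx3. Tbx3, required for limb and mammary development, had 8 positions at 89.7 % in wt and 7.60 % in βerko. Tbx18 had 7 at 90.7 and 1.23 %, and Eomes had 4 at 98.2 and 9.15 %. The 7 positions of Tbx18 were also labelled D030062O11Rik, and 3 of them lay in coding sequence. For Gata, Gli, Zic and Klf genes there were 34 positions in 5 of 29 genes and a share of 14.6 % of 281, but 29 of the positions were those of Gata6, and without it the share was 5.26 % of 228. Forkhead genes had 26 positions in 11 of 42 genes and a share of 8.26 % of 363, or 6.91 % of 333 without Foxo6. Among them, Foxo6 had 7 positions at 91.8 and 13.4 %, and Foxc2, a gene of mesenchymal and lymphatic development, had 5 at 94.5 and 0.408 %. Sox genes had 9 positions in 5 of 17 genes (6.93 % of 101, and 4.17 % of 96 without Sox9), among them 2 in Sox9, a gene of cartilage formation, at 97.9 and 8.15 %. Basic helix-loop-helix genes had 5 positions in 5 of 48 genes (4.76 % of 126, and 4.10 % of 122 without Bhlha9). The only Pax gene with positions was Pax5, with 2 at 92.9 and 3.57 % outside model exons, and none of 33 Pax positions above 80 % in wt was below 20 % by the gene models.

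Among the signalling and other families, Wnt genes with their receptors and antagonists had 23 positions in 5 of 34 genes, and a share of 10.2 % of 275, or 5.83 % of 240 without Fzd9. Of these, 14 lay in Fzd9, a Wnt receptor gene, with 90.9 % in wt (10 to 35 reads) and 8.11 % in βerko (16 to 104 reads). Another 6 lay under the label of Wnt5a, a ligand gene, with 95.1 and 14.7 %. They were also labelled Gm2670, and none lay in coding sequence. TGF-β and BMP genes had 6 positions in 4 of 44 genes (3.75 % of 267, and 1.98 % of 253 without Bmp4), 3 of them in Bmp4 at 89.5 and 8.75 %. Potassium, sodium and calcium channel genes had 30 positions in 12 of 115 genes (3.72 % of 725), and 16 of these were in Kcng2. By the gene models, Kcng2 gave 7 of the positions behind this share. Without it, the share was 2.79 % of 718, near the 2.5 % of all genes. Semaphorins and plexins (1.98 % of 354), ephrins and Eph receptors (1.82 % of 165) and clustered protocadherins (1.79 % of 112) had 4, 2 and 2 positions and lay below the share of all genes. Collagens and laminins, matrix genes that fibroblasts express, had a single position in 51 genes, in Col1a1, and a share of 0.992 % of 605. Its values were 98.1 % at 54 wt reads and 15.2 % at 46 βerko reads.

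Of the genes that the study examined singly, Pitx1 and Hoxd9 held hypomethylated exonic positions. Esr2, the gene disrupted in βerko MEFs, held none, and its 6 covered exonic positions averaged 67.6 % in wt and 51.7 % in βerko. Over all its 71 covered exonic positions by gene models, Hoxd9 had 94.4 % in wt and 4.13 % in βerko, and over 94 positions Pitx1 had 67.5 and 24.0 %. Pitx1 also carried 7 hypermethylated DMPs under a promoter label, more than 2 kb from its hypomethylated exonic positions, with means of 3.49 % in wt and 89.6 % in βerko. The paper counts its Pitx1 promoter site among the hypermethylated DMPs, opposite to the exonic positions described here. The exonic positions of Hoxa9 and Hoxa10 were higher in βerko, with 0.555 and 27.1 % over 15 positions and 0.980 and 32.3 % over 34 positions.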

How the data were processed

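The authors performed RRBS with DNA of wt and βerko MEFs, digested with MspI, size-selected, treated with bisulfite and amplified by 19 cycles of PCR, per the labels. Submitters' processing notes name CASAVA 1.4 and mm9. The authors mapped reads with the Genomatix Mining Station (version not given in the sources used here) and deposited the percent methylation of every position covered in both libraries, without coverage. For DMPs they deposited whole read counts per position and library and an annotation made with RegionMiner. All 826937 positions were CpG cytosines in NCBIM37.

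Hypomethylated exonic positions were selected by methylation, coverage and label. Members and gene lists were chosen with earlier results of these data known. Since the coverage of other positions was not used, their depth is unknown here. Exons, coding sequence and promoters for backgrounds came from GENCODE gene models on NCBIM37, and for a position in several transcripts a single one was used. Named were the 20 genes with most positions, the genes of the 10 largest runs, up to 4 genes per list, the 10 deepest positions, those nearest the thresholds, the 5 lowest and 5 highest exons and genes of the study. Promoters, distant exons, hypermethylated neighbours and single examples lie outside this rule and were chosen after their values were seen. With 1 library per genotype, no test was made, and shares have exact binomial intervals. Run finding, neighbour differences and the overlap of positions with genomic intervals were tested on simulated data, but the binomial intervals were not. Alternatives for coverage, thresholds, strands, annotation, runs, neighbours and windows are given in the closing section. Python 3.11.15 was used with SciPy 1.17.1, NumPy 2.4.6, pysam 0.24.0, matplotlib 3.10.9 and pandas 2.3.3. The sequences of some groups are not reported here.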

Additional observations from a re-analysis of the deposited data

How the results depend on the processing

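No paired analysis was possible because each genotype had 1 library. With at least 20 reads in both libraries, 767 hypomethylated exonic positions in 415 genes were left, of which 39.6 % lay in runs, 53.7 % in coding sequence and 62.6 % in CpG-rich windows, with a neighbour difference of -45.6 points. With at least 10 reads, 69.5 % lay in CpG-rich windows. With thresholds of 90 and 10 % methylation there were 519 positions in 238 genes, with 45.3 % in runs, 51.6 % in coding sequence, 74.6 % in CpG-rich windows and a neighbour difference of -63.9 points. Merging strands gave 47.3 % in runs. Gene models in place of the deposited annotation gave 73.8 % in coding sequence and 74.5 % in CpG-rich windows. Leaving out positions whose exon label rests on cDNA clones alone, an alternative chosen after seeing the data, gave 71.1 and 75.4 %. The share in runs was 44.2 % with gaps of at most 50 bp, 57.1 % with gaps of at most 200 bp and 36.2 % with at least 5 positions per run. The neighbour difference was -40.6 points within 200 bp and -28.7 points with 1 value per run within 500 bp. The share in CpG-rich windows was 54.5 % with 1 position per run and 75 % with windows of 100 bp on each side. The other 26 values moved less than their counting error, or by less than 1.5 times for counts, and no neighbour difference changed sign. Values rest on 1 library per genotype, and a low coverage limits the precision of single positions.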
